A study of Gallus gallus with 6 samples.

Results

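The Notch1 signal of the chicken otocyst, the vesicle from which the inner ear forms, was read from 2 of the 25752 sequences against which the reads had been quantified. The first, NICD1, is 1 of 5 sequences that carry plain names beside 25747 Ensembl chicken transcripts, and its name is the usual one for the intracellular domain of the receptor Notch1. The second, ENSGALT00000003754.6, was chosen by the estimated counts themselves, whatever the treatment of the library. Of the 25751 other targets, it was the 1 whose estimated counts added up with those of NICD1 to a whole number in all 6 libraries, to within 0.01 of a count. The next best targets among those with divided reads did so in 2 libraries. Estimates that are fractional alone and whole together are what results when reads are divided between 2 targets and no others. The estimates of the pair were therefore summed, and the sum is called the Notch1 signal. Its name rests on that of NICD1, since the files give no gene name for the Ensembl transcript and 0 of the 25747 identifiers could be matched to the names at hand.

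Notch1 is a cell surface receptor. When a ligand on a neighbouring cell, such as Delta or Jagged, binds it, proteases cut the receptor and its intracellular domain enters the nucleus, where it joins the DNA-binding protein RBPJ and turns on genes of the Hes and Hey families. In the otocyst, Notch signalling is known for selecting which cells leave the epithelium as neuroblasts and for marking the prosensory patches from which hair cells and supporting cells later form. IWR-1 is a small molecule that stabilises the Axin complex, which degrades beta-catenin, and so blocks canonical Wnt signalling.

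The otocysts came from 3 White Leghorn embryos at embryonic day 2.5 per the sample labels (the series' design text writes E3), numbered 35, 39 and 40 in the sample titles, and were cleaned of mesenchyme and cultured free-floating for 24 h. From each embryo the right otocyst received 300 µM IWR-1 and the left received the solvent DMSO, so that there were 3 libraries per group and each library came from a single otocyst. Drug and body side therefore cannot be told apart. The labels name no transgene or electroporated construct. Library totals ran from 10060014 to 15217029 estimated counts. Mean fragment length was 211.0 to 212.1 bases in 4 libraries but 191.9 for embryo 40 with IWR-1 and 182.4 for embryo 39 with DMSO. Because gene names were lacking, the tissue could not be checked against otic markers, and Notch ligands, modifiers and target genes could not be looked up.

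The Notch1 signal was higher in the IWR-1 otocyst than in the DMSO otocyst of every embryo. Its summed count was 2922, 2810 and 3792 in the IWR-1 libraries of embryos 35, 39 and 40. In the DMSO libraries of the same embryos it was 1631, 1306 and 1520. All 3 IWR-1 libraries thus lay above all 3 DMSO libraries, although the largest library of the 6, the DMSO library of embryo 39, gave the smallest count. Scaled to the library total as CPM, the signal was 195.2, 216.6 and 260.2 in IWR-1. It was 127.9, 85.8 and 151.1 CPM in DMSO. Counting error was small beside these gaps, with 95% Clopper-Pearson intervals of 188.2 to 202.4 CPM for the lowest IWR-1 library and 143.6 to 158.9 CPM for the highest DMSO library. These intervals cover counting error only, as the reads carried no molecular identifiers.

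The mean over 3 otocysts was 224.0 CPM (SD 33.1) with IWR-1 and 121.6 CPM (SD 33.1) with DMSO. A two-sided exact permutation test of these means gave p = 0.1, the smallest that 3 libraries against 3 can give. Paired within embryos, the exact permutation test gave p = 0.25, again the smallest possible. Of 16523 targets tested, 1398, or 8.46%, likewise had all IWR-1 libraries above all DMSO libraries on the scaled log2 CPM. Neither the share without overlap on other scales nor the share higher within every embryo was counted. Within embryos, the IWR-1 otocyst carried 1.53 times the CPM of its partner in embryo 35, 2.52 times in embryo 39 and 1.72 times in embryo 40. The widest gap, in embryo 39, came from the lowest DMSO value rather than from the highest IWR-1 value. Whether more cells of the otocyst carried the transcript or each cell carried more of it cannot be told apart in libraries of whole vesicles.

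**Figure D1:**
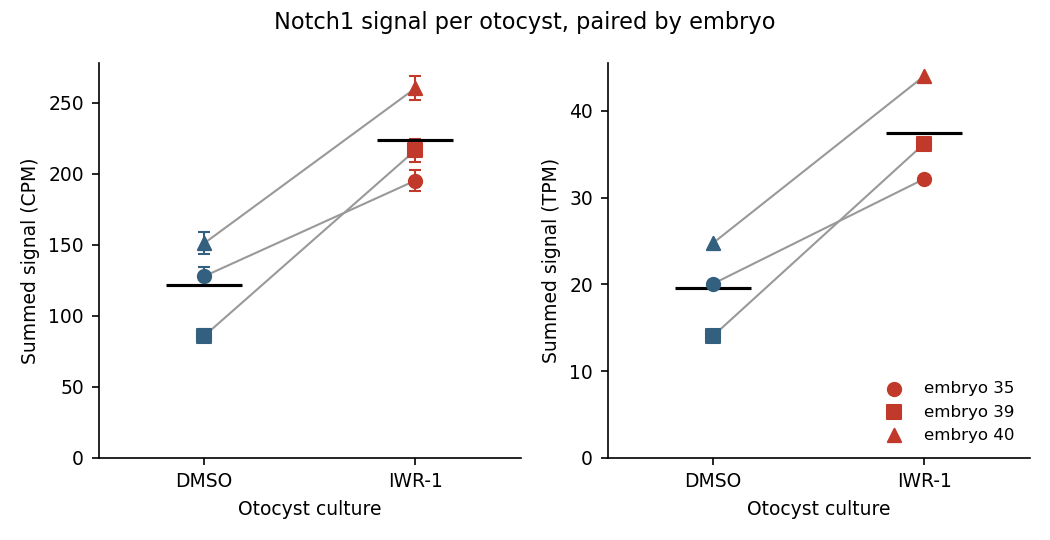
Summed Notch1 signal per otocyst in CPM (left) and TPM (right), with lines joining the otocysts of an embryo, short black bars for group means and, on the left, 95% Clopper-Pearson intervals for counting error. All 3 lines go up from DMSO to IWR-1, and the IWR-1 values, from 195.2 to 260.2 CPM, do not overlap the DMSO values, from 85.8 to 151.1 CPM. Of 16523 targets tested, 8.46% likewise had no overlap in this direction on the scaled log2 CPM. The share higher within every embryo was not counted.

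Per length, the signal was that of a moderately abundant transcript. The summed TPM, a relative abundance scaled by effective length, was 32.2, 36.2 and 44.0 in the IWR-1 libraries of embryos 35, 39 and 40 and 20.1, 14.1 and 24.8 in the DMSO libraries. These levels were 3.83 to 5.26 times the median TPM of all targets above 0 in the IWR-1 libraries and 1.96 to 2.77 times in the DMSO libraries. By TPM the signal ranked 5103, 4641 and 4096 of 25751 in IWR-1, counted from the most abundant. In DMSO it ranked 6693, 7283 and 6006. The IWR-1 ranks were thus all ahead of the DMSO ranks, but the share of all targets without overlap was counted neither on TPM nor on its ranks. On average 82.1% ± 1.96 of targets lay below the signal in IWR-1 against 74.1% ± 2.48 in DMSO (SD, n = 3 each).

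A sum of TPM values counts the shorter NICD1 at a higher weight per read. With all reads of the pair assigned to the 9401 bases of ENSGALT00000003754.6, the level was 26.8, 29.1 and 35.6 TPM in IWR-1. It was 17.0, 11.1 and 20.4 TPM in DMSO, again without overlap. The ranks on this scale were 5743, 5408 and 4777 in IWR-1 and 7278, 8074 and 6722 in DMSO, behind those by summed TPM. The share of all targets without overlap was not counted on this scale. By read count alone the long transcript stood higher, at ranks 666 to 1071 in IWR-1 and 1496 to 2757 in DMSO, since a long target collects more reads at a given level. Only 204 targets, or 0.792%, are longer. Among the 236 targets of more than 8000 and up to 11000 bases, the signal held ranks 3, 3 and 1 by summed TPM in the IWR-1 libraries of embryos 35, 39 and 40. It held ranks 8, 7 and 7 in the DMSO libraries of the same embryos. The median TPM of these long targets was 1.67 to 1.77 in IWR-1 and 0.960 to 1.70 in DMSO. Unlike the median of all targets given above, it includes targets at 0, as only 191 to 203 of the 236 were above 0. By summed TPM the Notch1 signal was thus among the most abundant long targets in every library.

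The longer member, ENSGALT00000003754.6, held most of the signal. In embryos 35, 39 and 40 it measured 182.9, 199.8 and 240.6 CPM with IWR-1 but 120.4, 78.4 and 140.8 CPM with DMSO. On the TPM scale its mean was 28.3 ± 4.10 in IWR-1 and 15.0 ± 4.51 in DMSO (SD, n = 3 each). The groups did not overlap on either scale, and the share of all targets without overlap was counted on neither.

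NICD1, at 2429 bases or 25.8% of the length of its partner, was the minor member. Its estimated counts were 184.6, 217.4 and 286.3 in IWR-1 and 95.2, 113.2 and 103.8 in DMSO. On the TPM scale its mean was 9.15 ± 2.03 in IWR-1 and 4.60 ± 1.01 in DMSO (SD, n = 3 each). Here too every IWR-1 library lay above every DMSO library, with the share of all targets without overlap again not counted. The IWR-1 otocyst carried 1.71, 2.37 and 1.92 times the TPM of its partner in embryos 35, 39 and 40. For the longer member the same ratios were 1.57, 2.66 and 1.73. The members thus differed in the same direction by similar amounts, and since the quantification divides shared reads between them, they are not separate evidence.

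No consistent difference between the treatments was seen in how the reads were divided. NICD1 took 6.32%, 7.74% and 7.55% of the summed counts in the IWR-1 libraries of embryos 35, 39 and 40. It took 5.84%, 8.67% and 6.83% in the DMSO libraries. The highest and the lowest share were both in DMSO libraries, and the share was higher in IWR-1 in embryos 35 and 40 and lower in embryo 39. The mean difference was 0.0914 percentage points (7.20% ± 0.771 against 7.11% ± 1.44, SD, n = 3 each; two-sided exact permutation p = 1). Its sign changed when some single libraries were left out. On the TPM scale NICD1 stood at 0.279 to 0.347 of the level of its partner in IWR-1 and at 0.257 to 0.390 in DMSO. The files do not separate reads of a NICD1 sequence from reads that ENSGALT00000003754.6 shares with it. Of the other added sequences, mRFP reached 17 counts in embryo 40 with IWR-1 and at most 1 elsewhere, EGFP had at most 5 in any library, and Atoh1 had 2 in embryo 39 with DMSO and 0 elsewhere. The share of NICD1 in the library with 17 mRFP counts lay inside the range of the other libraries. That library also had the highest NICD1 level, 19.6 CPM, and the highest Notch1 signal, 260.2 CPM. Whether these levels go with the mRFP counts was not tested.

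**Figure D2:**
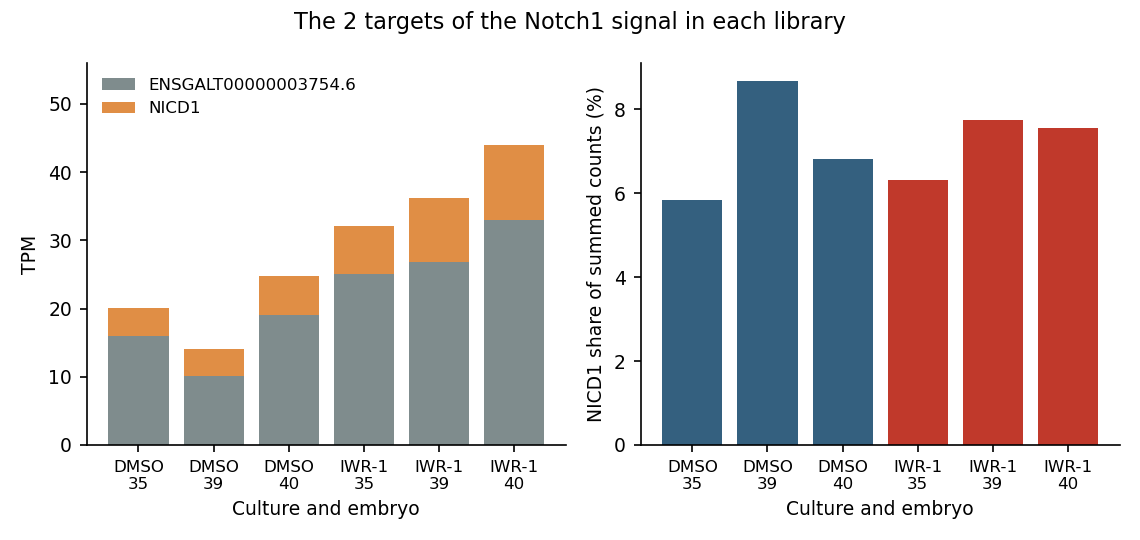
Left, TPM of ENSGALT00000003754.6 (grey) and NICD1 (orange) stacked for each library, labelled by culture and embryo number. Right, the share of the summed counts that was given to NICD1 in percent, which ran from 5.84% to 8.67% in DMSO (blue) and from 6.32% to 7.74% in IWR-1 (red), so that the groups overlap.

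Across the whole table the difference was sizeable but did not pass the test fitted to all targets. In that fit the log2 fold change of the Notch1 signal was 0.82 (SE 0.20), which is 1.77-fold higher in IWR-1, with a 95% interval of 1.29-fold to 2.44-fold (edgeR quasi-likelihood test, unadjusted p = 0.00363, Benjamini-Hochberg adjusted p = 0.438 over 16523 targets). The adjusted threshold of 0.05 was passed by 1 target, or 0.00605%, which was lower in IWR-1. At an unadjusted p under 0.05, 609 targets or 3.69% were higher in IWR-1, and the signal had the 67th smallest p among the higher ones. A larger log2 fold change was seen in 6.50% of targets. That share depended on the filter, at 2.62% with at least 10 counts in every library and 15.4% with no filter beyond any count. The pair was picked with its fold change already known. Its p-values, here, in the permutation tests and in the other fits, therefore describe where it stands and are not independent evidence. NICD1 as deposited stood at 0.88 (SE 0.27) on the log2 scale, with an edgeR adjusted p of 0.569, and ENSGALT00000003754.6 stood at 0.82 (SE 0.20), with an edgeR adjusted p of 0.441.

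Pairing the otocysts by embryo left the size of the difference nearly as it was, at 0.84 (SE 0.16) on the log2 scale, and gave an edgeR adjusted p of 0.401 with the replicate block. The call depended on the tool, on the block and on which other targets shared the fit. Because the sum is whole, the signal can be tested beside the 6352 retained targets whose counts were whole in every library, that is, beside targets with no divided reads. In that set, with the replicate block, the signal stood at 0.86 (SE 0.16) on the log2 scale with an edgeR adjusted p of 9.80e-04, and it was among 96 targets, or 1.51%, called higher in IWR-1. Without the block the same set gave 0.84 (SE 0.19; edgeR adjusted p = 0.137). DESeq2 on all targets called the signal both without the block (adjusted p = 0.0133, with 0.593% of targets called higher) and with it (adjusted p = 3.01e-04, with 0.781% called higher).

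**Figure D3:**
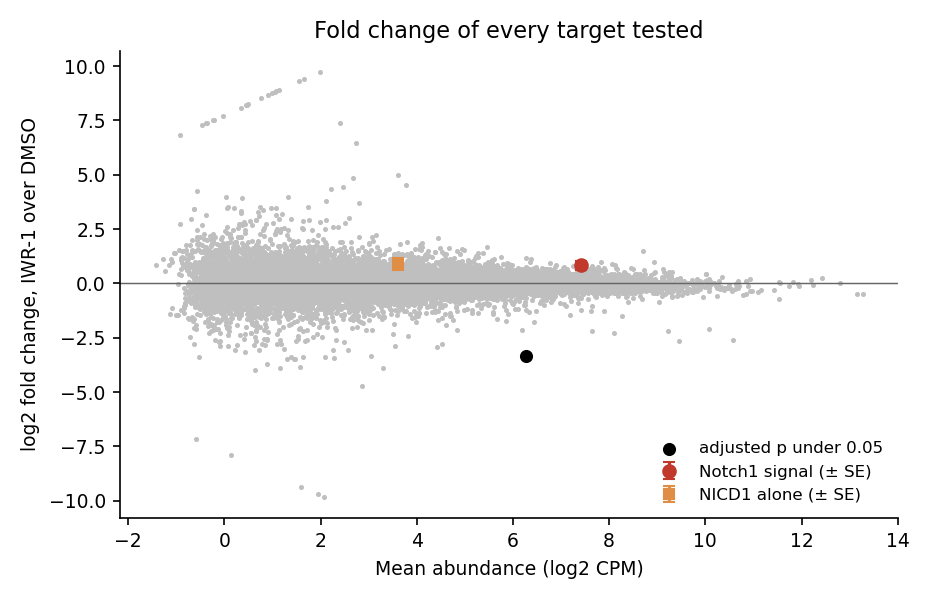
Log2 fold change of IWR-1 over DMSO against mean abundance in log2 CPM for the 16523 targets tested, grey points, with the Notch1 signal in red and NICD1 alone in orange with standard errors. The signal lies at 0.82, with 6.50% of all targets above it, and the 1 target past the adjusted threshold, in black, lies below 0.

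Target length moved with the comparison. The median log2 fold change was -0.07 for 2422 targets of up to 1000 bases, 0.01 for 5444 targets of 2000 to 4000 bases and 0.25 for 171 targets of 8000 to 11000 bases. Longer targets were thus higher in IWR-1 relative to short ones, and of the 171 long targets 73.1% had a log2 fold change above 0. The signal, at 0.82, lay above the upper quartile of these long targets, 0.50, and 11.7% of them had a larger log2 fold change. Long targets were lowest in the DMSO library of embryo 39, at a median of -0.46 log2 units from their mean over the 6 libraries, and that library also had the lowest Notch1 signal. The other 5 libraries had medians between -0.02 and 0.23.

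With the median of the long targets subtracted within each embryo, the Notch1 signal remained higher in IWR-1 by 0.52, 0.57 and 0.49 on the log2 scale in embryos 35, 39 and 40. Before that subtraction the differences were 0.61, 1.18 and 0.74. The embryos were closer to each other after it, with a mean of 0.53 ± 0.04 against 0.84 ± 0.30 (SD, n = 3). A fit with the trend on length removed in each library gave a log2 fold change of 0.55 (SE 0.14), which is 1.47-fold, with an edgeR adjusted p of 0.402, and 0.55 (SE 0.10) with an edgeR adjusted p of 0.370 with the replicate block. Among the targets with whole counts and with the block, the length-corrected value was 0.55 (SE 0.13; edgeR adjusted p = 0.0142). Of the 6353 targets in that fit, the signal among them, 107 were called higher in IWR-1 and 117 lower. The signal had the 46th smallest p among the higher targets there. Without the pair of libraries with shorter fragments, which hold the highest and the lowest signal, the log2 value was 0.55 (SE 0.14). Its edgeR adjusted p was 0.677, and only embryo 35 then kept both otocysts. With all 6 libraries and fragment length as a covariate, the log2 value was 0.83 (SE 0.19; edgeR adjusted p = 0.453). Apart from the fragment length covariate, these corrections and omissions were chosen after the values had been seen.

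**Figure D4:**
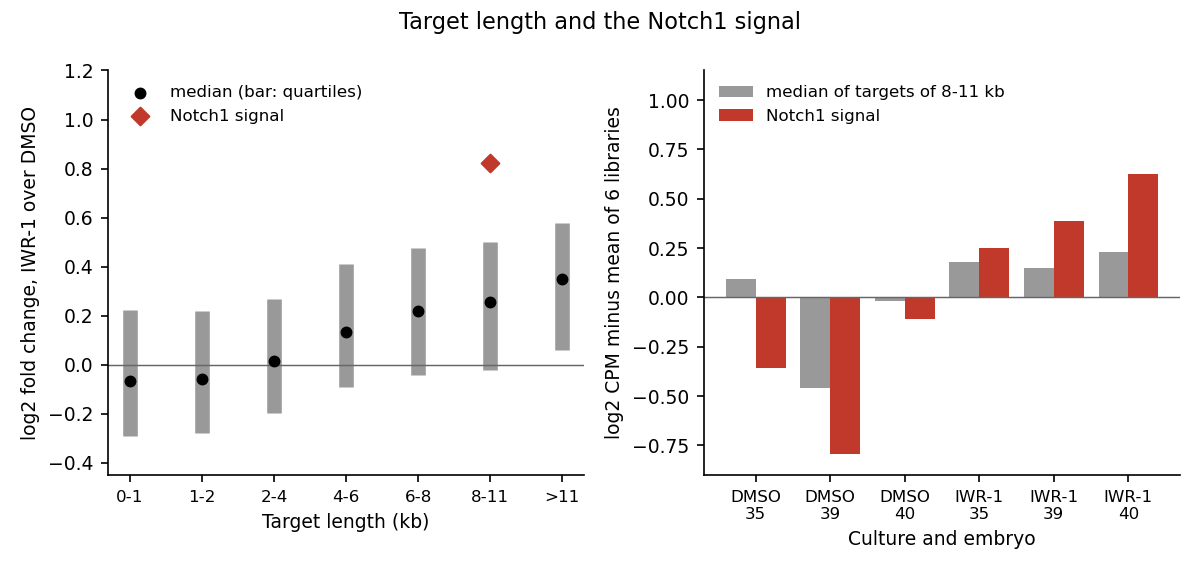
Left, median (point) and quartiles (bar) of the log2 fold change of IWR-1 over DMSO for all targets by length in kb, with the Notch1 signal as a red diamond at 0.82. Right, log2 CPM of each library minus the mean of the 6 libraries, for the median of 171 targets of 8 to 11 kb (grey) and for the Notch1 signal (red), both lowest in the DMSO library of embryo 39.

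Leaving out single libraries kept the direction, which could not change because the groups do not overlap. The log2 fold change of the signal was lowest, 0.66, without the DMSO library of embryo 39 and highest, 0.99, without the DMSO library of embryo 40. In all 6 of these fits the edgeR adjusted p stayed above the threshold, from 0.384 to 0.997.

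**Figure D5:**
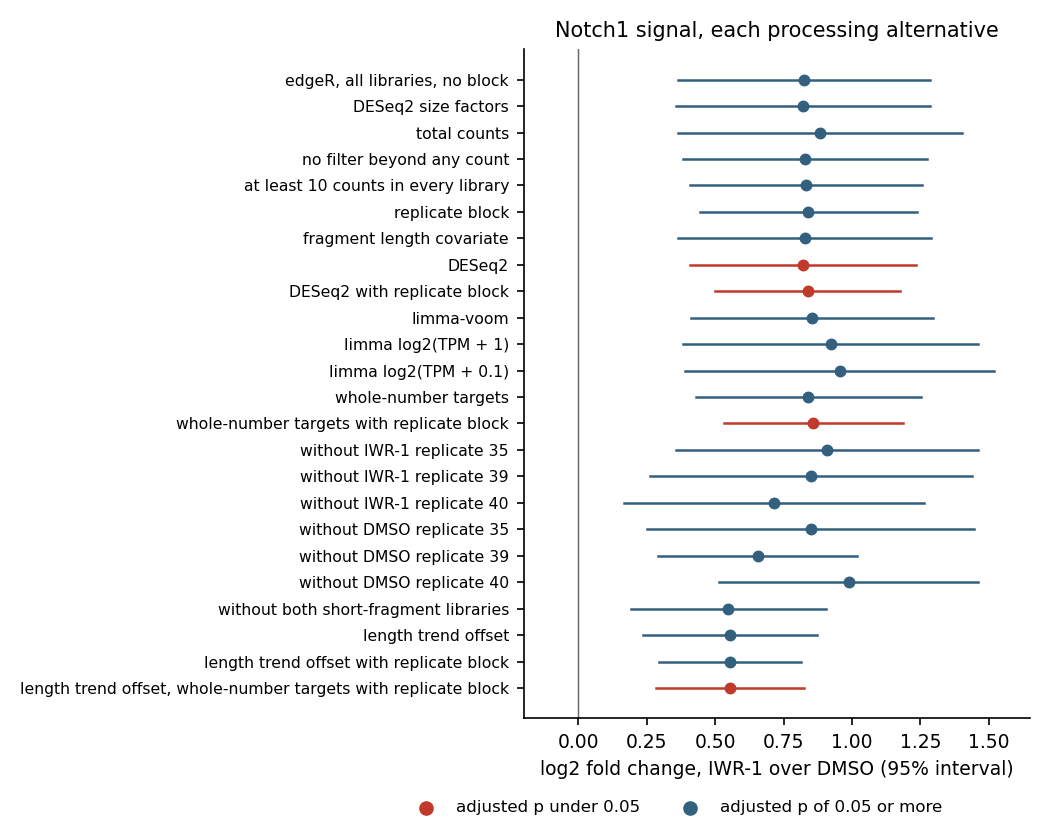
Log2 fold change of the Notch1 signal with its 95% interval (x axis) under each way of processing (y axis), red where the adjusted p was under 0.05 and blue elsewhere. All points lie between 0.55 and 0.99, the lowest of them without the short-fragment libraries or with the length trend removed.

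The targets most like the Notch1 signal were sought among the 6352 retained targets with whole counts, by Pearson's r of log2 CPM over the 6 libraries. As a description over so few points, 35 of them had r above 0.95 and 37 had r below -0.95. The highest r, 0.998, belonged to ENSGALT00000014637.4 (2943 bases), a sparse target at 1.92, 2.12 and 2.84 CPM in embryos 35, 39 and 40 with IWR-1 against 1.01, 0.574 and 1.19 CPM with DMSO. ENSGALT00000014689.5 (1563 bases) followed with r = 0.993, at 59.8, 67.8 and 76.5 CPM with IWR-1 against 45.3, 38.9 and 52.5 CPM with DMSO. Both were picked by r, which favours a shared order of the libraries. Each was lowest in the DMSO library of embryo 39 and highest in the IWR-1 library of embryo 40, as the Notch1 signal was.

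The mirror-image pattern was clearest in ENSGALT00000081903.1 (605 bases, r = -0.995), which was at 55.5, 54.6 and 43.0 CPM with IWR-1 against 98.9, 128.1 and 77.1 CPM with DMSO. ENSGALT00000007079.5 (2352 bases, r = -0.987) was at 2.05, 1.06 and 1.06 CPM with IWR-1 against 7.31, 14.5 and 3.96 CPM with DMSO. In both, likewise picked by r, the DMSO library of embryo 39 was the highest. None of these 4 targets passed the adjusted threshold in the fit to all targets, with edgeR adjusted p-values from 0.362 to 0.702. All coefficients rest on the same 6 libraries and so share their depth, fragment length and length trend.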

How the data were processed

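Total RNA of single otocysts was amplified with a SMART-Seq v4 kit, made into Nextera XT libraries and sequenced as paired reads of 43 bases, per the labels' protocols. The authors deposited 1 table per library with estimated counts (not normalized) and TPM for each target, per the file headers; kallisto and bcl2fastq are named, without versions, in the submitters' processing notes. The transcript set and genome build are not given in the sources used here. Lengths and effective lengths come from the same tables.

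The members and lists were chosen with earlier results of these data known. Members were summed in a table of 25751 targets. Estimated counts were rounded, filtered with filterByExpr (minimum count 10, minimum total 15), TMM-scaled and tested with edgeR 4.0.16 (quasi-likelihood, Benjamini-Hochberg over all targets, threshold 0.05; R 4.3.3) on all 6 libraries without a covariate. CPM given per library is per library total, except in the search for like targets and the length medians, which used TMM scaling. Alternatives used DESeq2 1.42.0 and limma 3.58.1 (voom, or log2(TPM + 1) and log2(TPM + 0.1)), other scalings and filters, a fragment length covariate, whole-number targets and omitted libraries. The length trend was a lowess curve (span 0.5) of each library's log2 CPM deviations on log2 length. The fits were tested on simulated data. Targets most like the signal were named as the 2 highest and 2 lowest correlations, by identifier.

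Otocysts with the same number in their titles come from the same embryo, which pairs them. Deviations from the group means correlated at 0.121, 0.123 and 0.0899 for embryos 35, 39 and 40, and at -0.0930 to -0.0375 between different embryos. The deviations of a group cancel out for each target, so positive values within embryos bring negative values between embryos. Same-group libraries had Spearman correlations of 0.943 to 0.968, and none were copies.

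The lists of Notch pathway genes, otic markers and Wnt targets were not run, because 0 identifiers matched a name in the RefSeq table of GRCg7b, which holds 25635 genes. No sequence of either member was at hand, so none is shown.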

Additional observations from a re-analysis of the deposited data

Results flagged for a closer look

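Both results below stand out because mRFP and EGFP, added sequences outside the main comparison, reached more counts in an IWR-1 library than in any DMSO library. The added sequence Atoh1 went the other way, with 2 counts in embryo 39 with DMSO and 0 in each IWR-1 library, under the floor of 3 counts. The mRFP sequence reached 17 counts in embryo 40 with IWR-1, against 0 and 1 in the other IWR-1 libraries and 0 to 1 in the DMSO libraries. The EGFP sequence reached 5 counts in embryo 35 with IWR-1, against 0 and 2 in the other IWR-1 libraries and 0 to 1 in the DMSO libraries. Each high value thus rests on a single library. The NICD1 share of the Notch1 signal was 7.55% and 6.32% in these libraries, inside the range of the other libraries in both cases, from 5.84% to 8.67%. The IWR-1 library of embryo 40 also had the highest NICD1 level and the highest Notch1 signal of all libraries, and a link with mRFP was not tested.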

How the results depend on the processing

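The Notch1 signal was higher in IWR-1 in 17 of 17 alternatives and in all 6 fits without a library, with log2 fold changes from 0.55 to 0.95 and from 0.66 to 0.99. As the groups do not overlap, omitting a library could not change the direction. The alternatives rescale or refit these same libraries, so their shared direction is not separate evidence either. The signal came to pass the threshold with DESeq2 (0.82), DESeq2 with the replicate block (0.84), whole-number targets with the block (0.86) and the same set with the length trend removed (0.55). The replicate block alone gave 0.84 and changed no call for the signal or its members among all targets. The median log2 fold change of all targets was -0.0054 with TMM but 0.10 and 0.12 on log2(TPM + 1) and log2(TPM + 0.1), where the signal stood at 0.92 and 0.95. NICD1 passed in 0 of 14 alternatives (0.70 to 0.97; 0.74 to 1.04 without a library). ENSGALT00000003754.6 passed with DESeq2 (0.82) and DESeq2 with the block (0.84). It was at 0.54 to 0.95 over its 14 alternatives and at 0.64 to 0.98 without a library.

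The count of 1 target past the threshold, of 16523, became 4 of 13780 with 10 counts in every library and 2 of 16523 on log2(TPM + 1). It became 195 with DESeq2 and 251 with DESeq2 and the block, both of 16523. In the smaller set of 6353 with whole-number targets, it was 7, then 192 with the block and 224 with the length trend also removed. Omitting 1 library gave 0 to 1 with edgeR, beside 780 to 1766 targets whose unadjusted p was under 0.05, and 0 without both short-fragment libraries, with 943. The cause was not tested. The difference in NICD1 share had no stable sign, from -0.55 to 0.87 percentage points without a library. The mean share of targets below the signal, 78.1% by summed TPM, was 94.4% by CPM and 71.0% among targets above 0. With all reads of the pair assigned to ENSGALT00000003754.6 it was 75.4%.

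With 3 embryos, an exact test over samples cannot go below 0.1 unpaired or 0.25 paired by embryo, and depth limits the Notch1 signal less than the spread between otocysts does. The Notch pathway list and its alternatives were not run.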
